A study of Mus musculus with 13 samples.

Results

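The Kruppel-like factors are a family of zinc finger transcription factors. Here mRNA of 10 of their genes was followed across sorted small intestinal cells of the mouse, villus epithelium and sorted hair follicle cells. The members are Klf2, Klf3, Klf4, Klf5, Klf6, Klf7, Klf9, Klf10, Klf13 and Klf15, chosen by gene symbol, and each was read from the probe set that names only that gene and had the highest mean log2 value over 13 arrays. Of the 10 genes, 9 had such a probe set among 17097 genes in all. Klf7 was not named in the probe annotation and is not analysed here.

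All samples came from C57BL/6 mice of the genotype Lgr5-EGFP-ires-CreERT2, a knock-in in which the promoter of the stem cell gene Lgr5 drives GFP. By the design text, each sort combined 3 mice. The groups were hair follicle cells sorted for GFP (n = 3 arrays, called hair bulge in the study's methods), Villus, the epithelium of the complete villus with no GFP sort named (n = 3), GFP_Low, intestinal cells with dim GFP (n = 3), and GFP_High, intestinal cells with bright GFP, which hold the Lgr5+ stem cells (n = 4). No treatment was applied to any group, and ages were not given in the sources used here. GFP_Low replicates 2 and 3 and GFP_High replicate 4 carry a field for the Lgr5 level that names the other level than their titles, and the hair follicle titles say dim where that field says high. Groups follow the titles for the intestinal sorts and the named tissue for the hair follicle. Summed over 6 intestinal stem cell genes, intensity was 2674.2 to 3635.9 on the GFP_Low arrays and 7531.4 to 9822.2 on the GFP_High arrays, with no overlap. Where leaving out these 3 arrays changed the call of a member, the value without them is given beside it.

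Values are linear intensities of an expression array. A gene was taken as above background where its group mean exceeded the receptor level, an intensity of 7.9, which is the 95th percentile of 86 probe sets for olfactory, vomeronasal and taste receptors. Differences are in log2 units with the standard error (SE) of a linear model over all 13 arrays, and a gene was called where the adjusted p was below 0.05. The number of arrays limits the precision. In such bulk samples, fewer cells of a type and less RNA per cell cannot be told apart. Summed over genes, defining markers followed the tissue labels. Basal keratinocyte and hair follicle genes were above the receptor level for 9 of 9 measured genes in the hair follicle, 4 in Villus and 3 each in GFP_Low and GFP_High. Their sum was 22556 to 28242 in the hair follicle and at most 1365.7 elsewhere, although Itga6 averaged 816 there and 992 in GFP_High. Enterocyte genes were above the level for 7 of 7 in every intestinal group and 0 of 7 in the hair follicle. Their sum was highest in Villus (53764 to 55917).

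Kruppel-like factors bind GC-rich and CACCC-type DNA elements through zinc fingers at the end of the protein, and they differ in the regulatory domain that precedes these fingers. Some mainly activate, others recruit CtBP or Sin3 repressor complexes. In the intestine Klf5 is known from dividing crypt cells and Klf4 from differentiated cells of the villus and from goblet cells, and in the skin Klf4 is required for the barrier. Several members are also known as immediate early genes, whose mRNA rises quickly when tissue is injured or cells are dissociated.

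The DNA upstream of 4 members is shown because Klf2, Klf4 and Klf6 had the largest differences of the hair follicle from GFP_High and GFP_Low, whereas Klf3, on the probe set used, was not called in either. Each line gives the 250 bases before the annotated start, 5′ to 3′, from RefSeq (GRCm38.p6), with the motifs CACCC and GGGCGG, read on both strands, in capitals. The windows are chr8:72318812-72319061 (+) for Klf2, chr4:55532476-55532725 (-) for Klf4, chr13:5861239-5861488 (+) for Klf6 and chr5:64803271-64803520 (+) for Klf3.
Klf2: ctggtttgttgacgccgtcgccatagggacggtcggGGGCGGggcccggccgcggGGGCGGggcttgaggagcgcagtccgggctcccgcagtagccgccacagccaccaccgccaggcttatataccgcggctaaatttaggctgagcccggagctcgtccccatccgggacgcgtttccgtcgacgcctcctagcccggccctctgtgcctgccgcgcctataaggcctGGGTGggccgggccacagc
Klf4: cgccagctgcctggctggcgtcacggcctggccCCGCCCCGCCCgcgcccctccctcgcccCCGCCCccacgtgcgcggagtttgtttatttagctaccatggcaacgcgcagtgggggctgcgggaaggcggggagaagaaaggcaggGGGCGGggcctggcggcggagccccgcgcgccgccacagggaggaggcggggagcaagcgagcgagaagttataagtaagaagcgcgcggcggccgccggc
Klf6: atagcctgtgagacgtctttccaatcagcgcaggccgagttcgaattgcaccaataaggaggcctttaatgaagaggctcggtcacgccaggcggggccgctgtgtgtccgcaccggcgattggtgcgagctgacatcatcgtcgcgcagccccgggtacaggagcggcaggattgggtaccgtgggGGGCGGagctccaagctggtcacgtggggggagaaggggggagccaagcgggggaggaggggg
Klf3: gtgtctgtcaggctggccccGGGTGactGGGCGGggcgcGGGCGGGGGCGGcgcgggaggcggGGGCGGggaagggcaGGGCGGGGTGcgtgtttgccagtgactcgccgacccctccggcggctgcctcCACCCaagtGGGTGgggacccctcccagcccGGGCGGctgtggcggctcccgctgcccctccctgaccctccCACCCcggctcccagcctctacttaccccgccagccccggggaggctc
CACCC occurred 1 time before Klf2, 0 times before Klf4 and Klf6, and 5 times before Klf3. GGGCGG occurred 2, 4, 1 and 6 times in the same order, and 1 pair of the 2 motifs overlapped before Klf3. Promoter sequence was found for 8 of the 10 genes (all but Klf5 and Klf10). GGGCGG was present in 7 of these 8 windows and in 32.7% of all 32851 windows of this length, and CACCC in 6 of 8 and in 52.0%. The 8 windows were 59.2 to 78.4% G or C, against a median of 52.4% over all windows. These matches describe letters and say nothing of binding.

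Klf4 differed in all 6 comparisons between the 4 groups. Klf4, known for goblet cell maturation and the skin barrier, had intensities of 4971.9, 3767.7 and 5530.9 on the hair follicle arrays, 1878.5, 2263.4 and 1442.6 on the Villus arrays, 424.0, 486.0 and 528.9 on the GFP_Low arrays, and 212.9, 315.0, 309.3 and 101.6 on the GFP_High arrays. No 2 groups overlapped, and the order was hair follicle, Villus, GFP_Low, GFP_High. Villus was 8.54-fold above GFP_High (log2 difference 3.09 ± 0.32, adjusted p = 1.34e-06) and 3.83-fold above GFP_Low (1.94 ± 0.34, adjusted p = 0.000323). The hair follicle was 21.9-fold above GFP_High (4.45 ± 0.32, adjusted p = 3.38e-08) and 2.57-fold above Villus (1.36 ± 0.34, adjusted p = 0.00362). The smallest step, GFP_Low over GFP_High, was 2.23-fold (1.16 ± 0.32, adjusted p = 0.0237). That last call was lost without the 3 arrays whose labels disagree, where the difference was 0.63 ± 0.31 (adjusted p = 0.229), and without GFP_High replicate 1, GFP_Low replicate 2 or GFP_Low replicate 3 (adjusted p = 0.0524, 0.0562 and 0.0828).

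Goblet cell genes, 7 measured, summed to 22473 to 23905 in Villus, 21742 to 24236 in GFP_Low and 1071.5 to 2366.0 in GFP_High. The Villus and GFP_Low sums thus overlapped, but single genes did not stay level. In Villus against GFP_Low, Spdef (-2.06, adjusted p = 3.94e-06) and Agr2 (-1.99, adjusted p = 2.4e-06) were lower and Clca1 was higher (1.06, adjusted p = 0.00594). Between GFP_Low and GFP_High the goblet sum and Klf4 moved the same way. The part of goblet cells in the Klf4 differences between the intestinal groups was not tested. Enterocyte genes, 7 measured, summed to 53764 to 55917 in Villus, 7926.2 to 10983 in GFP_Low and 2191.1 to 3314.8 in GFP_High, the same order as Klf4 within the intestine.

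Klf5, known as a factor of proliferating crypt cells, was not called in any comparison. Its values were 181.4, 167.1 and 233.5 in the hair follicle, 234.2, 279.9 and 344.1 in Villus, 223.7, 223.0 and 214.1 in GFP_Low, and 316.0, 182.1, 211.3 and 154.2 in GFP_High. The GFP_High arrays alone spanned more than the GFP_Low and hair follicle arrays together, and every hair follicle array lay below every Villus array. The 6 log2 differences ran from -0.56 ± 0.23 (hair follicle minus Villus, adjusted p = 0.0541) to 0.44 ± 0.21 (Villus minus GFP_High, adjusted p = 0.109). Without GFP_High replicate 1, the array with the highest value of its group, Villus was above GFP_High by 0.64 ± 0.18 (adjusted p = 0.00849), and the hair follicle was below Villus by the same -0.56, with an adjusted p of 0.0168. Hair follicle minus Villus was also called with the intensity trend (adjusted p = 0.0464), with only the 2 groups in the fit (0.0401), without dim genes (0.0444) and in 4 of the 13 fits without 1 array.

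**Figure D1:**
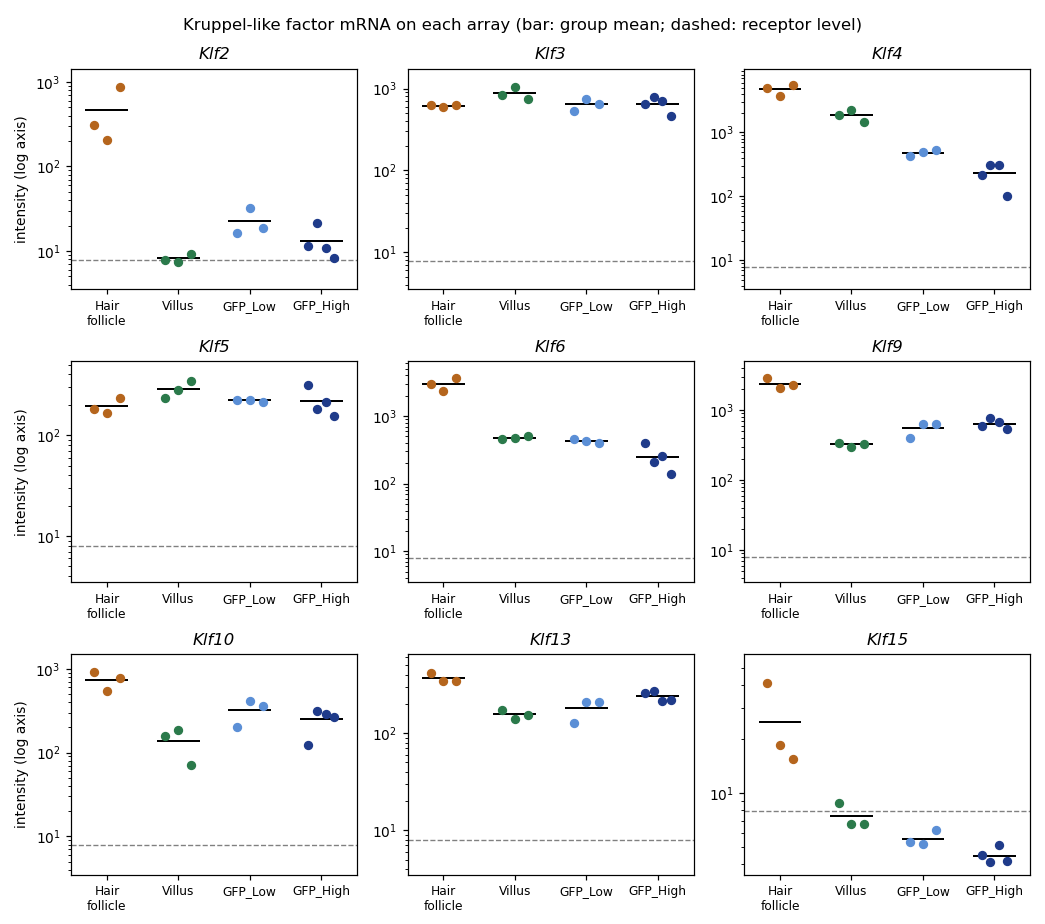
Intensity (log axis) of each measured Kruppel-like factor gene on each of the 13 arrays, with hair follicle, Villus, GFP_Low and GFP_High from left to right in each panel; points are arrays, bars are group means, and dashes mark the receptor level of 7.9. Klf4 steps down from group to group, Klf5 and Klf3 differ least between groups, and Klf15 is above the line on every hair follicle array but on only 1 of the intestinal arrays.

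Klf2, Klf6 and Klf10 were higher in the hair follicle than in every intestinal group, and all 9 of these differences were called. Klf2, known in endothelial cells exposed to flow and in resting T cells, measured 312.8, 207.4 and 871.6 in the hair follicle, 7.9, 7.5 and 9.1 in Villus, 16.5, 31.9 and 18.8 in GFP_Low, and 11.3, 21.7, 10.7 and 8.3 in GFP_High. Villus lay at the receptor level, with 1 of 3 arrays above it. The hair follicle was 31.6-fold above GFP_High (4.98 ± 0.42, adjusted p = 1.8e-07), 17.9-fold above GFP_Low (4.16 ± 0.45, adjusted p = 2.46e-06) and at least 46.4-fold above Villus with the Villus arrays set no lower than the receptor level (5.56 ± 0.45, adjusted p = 7.52e-08). These rest in part on hair follicle replicate 3, without which they were 4.39, 3.57 and 4.97. Hair follicle replicate 2, the lowest of the 3 hair follicle values, shares a title code with GFP_High replicate 2 and GFP_Low replicate 2. It exceeded them by 3.26 and 2.70.

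Among the intestinal groups, Villus had less Klf2 than GFP_Low (-1.40 ± 0.45, adjusted p = 0.0214), a call lost without GFP_Low replicate 2, Villus replicate 1 or Villus replicate 2 (adjusted p = 0.093, 0.0553 and 0.0605). GFP_Low was above GFP_High by 0.82 ± 0.42, which was not called (adjusted p = 0.226). With the sort as a block over the 3 sorts that gave both populations, which drops GFP_High replicate 4, the difference was 0.64 ± 0.13 and was called (adjusted p = 0.016). The 3 within-sort differences were 0.55, 0.56 and 0.81, all above 0. Markers of the cell types known for Klf2 were read directly. Of 8 endothelial marker genes, 0 were above the receptor level in the hair follicle, GFP_Low and GFP_High and 1 in Villus. T lymphocyte markers were above it for 7 of 8 genes in Villus and 1 of 8 in each other group. The part of either cell type in the Klf2 differences was not tested.

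Klf6, broadly expressed and induced by tissue injury, had intensities of 3013.0, 2386.3 and 3671.5 in the hair follicle, 454.0, 472.6 and 507.9 in Villus, 451.9, 426.5 and 398.9 in GFP_Low, and 395.3, 210.7, 257.8 and 138.7 in GFP_High. Hair follicle arrays stood far above the rest, and every GFP_High array lay below every Villus and GFP_Low array. The hair follicle exceeded GFP_High 12.8-fold (3.67 ± 0.26, adjusted p = 3.23e-08), GFP_Low 7.002-fold (2.81 ± 0.28, adjusted p = 1.15e-06) and Villus 6.23-fold (2.64 ± 0.28, adjusted p = 1.46e-06). Villus was 2.05-fold above GFP_High (1.03 ± 0.26, adjusted p = 0.00438) but not called against GFP_Low (0.17 ± 0.28, adjusted p = 0.691). GFP_Low was 1.82-fold above GFP_High (0.86 ± 0.26, adjusted p = 0.038). This call was near the threshold: with the sort as a block it was 0.61 ± 0.18 (adjusted p = 0.0523), without the 3 arrays with disagreeing labels 0.70 ± 0.32 (adjusted p = 0.19), and it held in 4 of the 13 fits that left out 1 array, with adjusted p from 0.0506 to 0.11 in the others.

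Klf10, known as a TGF-beta-inducible early gene, measured 916.5, 547.3 and 767.5 in the hair follicle, 158.7, 186.5 and 70.8 in Villus, 200.8, 410.3 and 355.7 in GFP_Low, and 124.6, 315.9, 289.4 and 269.7 in GFP_High. The lowest hair follicle array was above every intestinal array. Differences of the hair follicle were 1.63 ± 0.38 from GFP_High (3.09-fold, adjusted p = 0.00239), 1.24 ± 0.41 from GFP_Low (2.36-fold, adjusted p = 0.0219) and 2.51 ± 0.41 from Villus (5.69-fold, adjusted p = 9.82e-05). The difference from GFP_Low was not called without GFP_Low replicate 1, hair follicle replicate 1 or hair follicle replicate 3 (adjusted p = 0.102, 0.0844 and 0.0577). Between hair follicle replicate 2 and GFP_Low replicate 2, which share a title code, it was 0.42. Villus was 2.41-fold below GFP_Low (-1.27 ± 0.41, adjusted p = 0.0214), also a call that 1 array could end: adjusted p was 0.0848 without GFP_Low replicate 2, 0.0696 without GFP_Low replicate 3 and 0.113 without Villus replicate 3. Without the 3 arrays with disagreeing labels neither Klf2 (-1.02 ± 0.64, adjusted p = 0.272) nor Klf10 (-0.65 ± 0.59, adjusted p = 0.468) was called between Villus and GFP_Low, a fit that left GFP_Low with 1 array, assumed to vary like the other groups.

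Klf9 and Klf13 had the same order of groups, with the hair follicle highest, GFP_High next and Villus lowest. Klf9, induced by glucocorticoids and thyroid hormone, had 2850.5, 2036.8 and 2249.4 in the hair follicle, 338.2, 299.0 and 332.1 in Villus, 396.2, 627.3 and 622.8 in GFP_Low, and 597.0, 775.3, 665.3 and 526.9 in GFP_High. Only GFP_Low and GFP_High overlapped. Relative to GFP_High, the hair follicle was 3.71-fold higher (1.89 ± 0.18, adjusted p = 8.13e-07) and Villus 1.97-fold lower (-0.98 ± 0.18, adjusted p = 0.000425). Villus was also below GFP_Low (-0.73 ± 0.20, adjusted p = 0.00745; -0.30 ± 0.22, adjusted p = 0.364 without the 3 arrays with disagreeing labels), whereas GFP_Low and GFP_High were not called apart (-0.24 ± 0.18, adjusted p = 0.46). Against Villus, the hair follicle was 7.30-fold higher (2.87 ± 0.20, adjusted p = 1.26e-08).

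Klf13, a factor that can recruit the Sin3 co-repressor and is known for activating a chemokine gene in T cells, had 413.0, 342.9 and 340.1 in the hair follicle, 171.5, 139.4 and 155.2 in Villus, 127.6, 207.9 and 209.9 in GFP_Low, and 256.2, 271.7, 213.5 and 217.4 in GFP_High. Every hair follicle array was above every intestinal array. Hair follicle cells were above GFP_High by 1.53-fold (0.61 ± 0.18, adjusted p = 0.00951; 0.0503 without hair follicle replicate 1) and above Villus by 2.35-fold (1.23 ± 0.19, adjusted p = 5.18e-05). Villus was 1.54-fold below GFP_High (-0.62 ± 0.18, adjusted p = 0.00829). All GFP_Low arrays lay below all GFP_High arrays, but the difference was not called (-0.43 ± 0.18, adjusted p = 0.121), and within the sorts it was -1.01, -0.39 and -0.02. Without the 3 arrays with disagreeing labels, GFP_Low replicate 1 alone stood against GFP_High, and Klf13 was lower by 0.95 ± 0.21 (adjusted p = 0.0136) and Klf9 by 0.77 ± 0.22 (adjusted p = 0.0433). For both genes, GFP_Low replicate 1 was the lowest array of its group, and it also had the lowest 75th percentile of intensity of the 13 arrays, 37.6 against 40.6 to 52.1 on the others.

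Klf3, a repressor that recruits CtBP and restrains other members, was at 638.3, 587.6 and 624.5 in the hair follicle, 825.3, 1056.9 and 745.0 in Villus, 527.8, 740.1 and 648.9 in GFP_Low, and 641.2, 778.3, 709.6 and 464.6 in GFP_High. Villus was the highest group and overlapped only GFP_High. Hair follicle minus Villus was called (-0.49 ± 0.19, adjusted p = 0.0465), although 8 of the 13 fits without 1 array did not call it. Villus minus GFP_High was not called (0.44 ± 0.18, adjusted p = 0.059), and neither hair follicle minus GFP_High (-0.05 ± 0.18, adjusted p = 0.874) nor GFP_Low minus GFP_High (-0.01 ± 0.18, adjusted p = 0.986) was near the threshold. Villus minus GFP_Low was not called (0.45 ± 0.19, adjusted p = 0.0799), but was without the 3 arrays with disagreeing labels (0.71 ± 0.21, adjusted p = 0.0233).

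Klf15, known for control of amino acid and glucose metabolism in liver and muscle, was above the receptor level only in the hair follicle, at 41.1, 18.5 and 15.5. Villus arrays gave 8.8, 6.7 and 6.7, GFP_Low arrays 5.3, 5.2 and 6.2, and GFP_High arrays 4.5, 4.1, 5.1 and 4.2. The hair follicle was at least 2.88-fold above GFP_High and GFP_Low (adjusted p = 2.49e-06 and 2.23e-05) and at least 2.78-fold above Villus (adjusted p = 0.000132), where the bound is the hair follicle mean over the higher of the receptor level and the dim group's own value on each array. Villus minus GFP_High passed the test (adjusted p = 0.0315) with both groups below the receptor level, and no fold is given; without the 3 arrays with disagreeing labels it did not (0.69 ± 0.31, adjusted p = 0.0939). Hair follicle replicate 1 stood above the other 2.

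**Figure D2:**
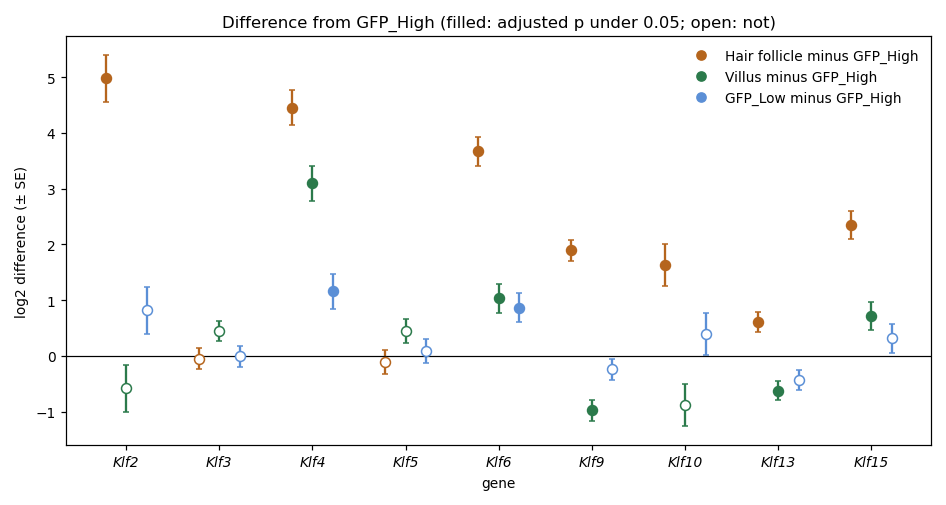
Log2 difference from GFP_High of each measured member, for the hair follicle, Villus and GFP_Low from left to right at each gene; bars are SE, filled points had an adjusted p under 0.05 and open points did not. In the hair follicle 7 of 9 members lie above 0 and filled, from 0.61 for Klf13 to 4.98 for Klf2, while Klf3, whose other probe sets lie above 0, and Klf5 are open and near 0.

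Counted over the 9 measured members, the hair follicle differed from the intestine mainly in one direction. Against GFP_High, 7 members were higher and 0 lower in the hair follicle, where 19.4% of all genes tested were higher and 29.1% lower, and the median log2 difference was 1.89 for the members and -0.06 for all genes. Against GFP_Low it was again 7 higher and 0 lower (all genes 21.0% and 25.2%, medians 2.04 and -0.05). Against Villus it was 7 higher and 1 lower, Klf3 (all genes 26.9% and 27.4%, medians 1.63 and -0.04). These 3 comparisons share the hair follicle arrays. The 7 higher genes were Klf2, Klf4, Klf6, Klf9, Klf10, Klf13 and Klf15 in each.

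Within the intestine the members did not move as a group. Villus against GFP_High had 3 higher (Klf4, Klf6 and Klf15, the last below the receptor level) and 2 lower (Klf9 and Klf13), where 22.6% of all genes were higher and 26.3% lower. Villus against GFP_Low had 1 higher (Klf4) and 3 lower (Klf2, Klf9 and Klf10), with 20.8% and 21.3% over all genes. GFP_Low against GFP_High had 2 higher (Klf4 and Klf6) and 0 lower, with 6.32% and 10.4% over all genes. That last count turned to 0 higher and 2 lower (Klf9 and Klf13) without the 3 arrays with disagreeing labels, and with the sort as a block the 2 higher were Klf2 and Klf4. Median differences of the members were 0.44, 0.17 and 0.32 in these comparisons, beside 0.02, 0.02 and -0.04 over all genes. With so few members, counts of 1 to 3 are too small to be set against these shares, and they were not tested.

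Immediate early and heat shock genes, known to rise when cells are isolated from tissue, moved with the hair follicle and Villus groups. Of 18 measured, 17 were higher in the hair follicle than in GFP_High (19.4% of all genes) and 14 were lower in Villus (26.3%). GFP_Low had 1 higher and 1 lower than GFP_High (6.32% and 10.4%). Their summed intensity was 57696 to 80054 on the hair follicle arrays, 4170.9 to 5371.2 on the Villus arrays, 16722 to 17817 on the GFP_Low arrays and 11894 to 20261 on the GFP_High arrays. Nr4a1, an orphan nuclear receptor gene, averaged 3424 ± 532 in the hair follicle, 15.3 ± 10.2 in Villus, 230 ± 59.1 in GFP_Low and 276 ± 197 in GFP_High (SD). Ier3, another early response gene, averaged 2946 ± 889 in the hair follicle and 142 ± 65.2 in GFP_High (SD), a difference of 4.46 (adjusted p = 1.3e-07).

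The order of this sum, hair follicle, the GFP-sorted intestinal groups, then Villus, was also the order of the group means of Klf2, Klf9, Klf10 and Klf13. Villus was not called against GFP_High for Klf2 and Klf10 (adjusted p = 0.294 and 0.073), nor against GFP_Low for Klf13 (adjusted p = 0.457). It was not the order of Klf3, Klf4, Klf5, Klf6 and Klf15. Klf4 and Klf6 were higher in Villus than in GFP_High while the early genes were lower. Klf3 and Klf5 had their highest mean in Villus, and Klf15 was below the receptor level in every intestinal group. Within the hair follicle, replicate 3 had the highest early gene sum and the highest Klf2, Klf4 and Klf6, and replicate 2 the lowest of each and the lowest Klf9 and Klf10. Replicate 3 also had the lowest Klf13 and Klf15, and replicate 1 the highest Klf9, Klf10, Klf13 and Klf15. Within GFP_High, replicate 4 had the lowest sum and the lowest Klf2, Klf3, Klf4, Klf5, Klf6 and Klf9. Klf10 was lowest there on replicate 1 (124.6), Klf13 on replicate 3 (213.5) and Klf15 on replicate 2 (4.1). By the methods, crypt cells were digested with trypsin and sorted, and skin cells had a trypsin step that could be much longer. Villus epithelium was freed with EDTA and EGTA. For the arrays, the same methods state that RNA of all groups was isolated after cell sorting. How the Villus cells of the arrays were digested and sorted is thus not clear. Isolation and cell type therefore cannot be told apart, neither between Villus and the GFP-sorted groups nor between the hair follicle and the intestinal sorts. The part of early response or cell isolation in the member differences was not tested.

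**Figure D3:**
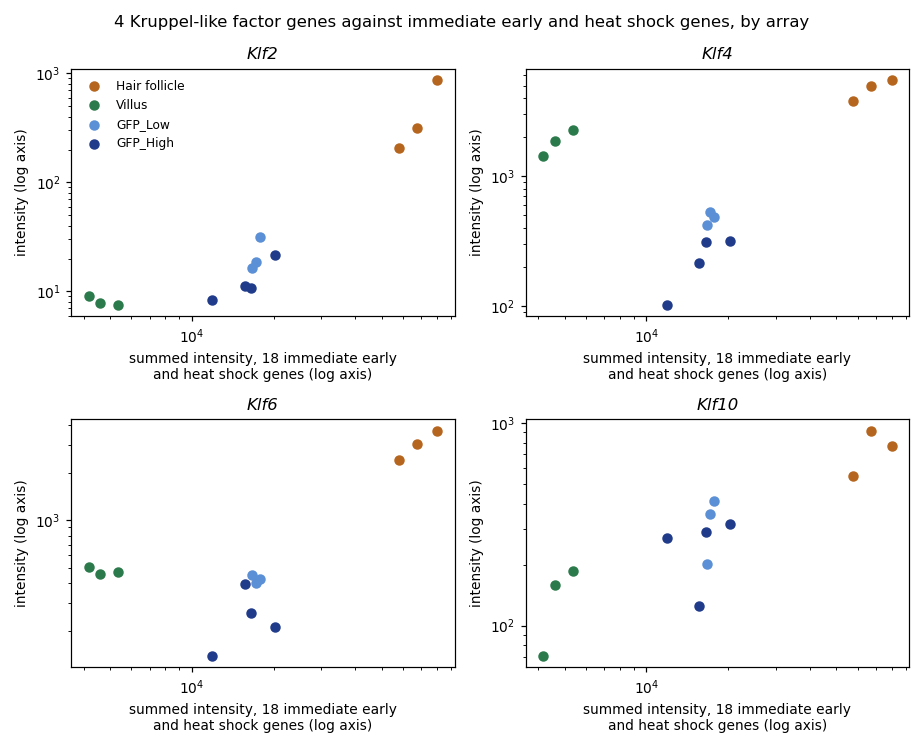
Intensity of Klf2, Klf4, Klf6 and Klf10 (log axis) against the summed intensity of 18 immediate early and heat shock genes (log axis); each point is 1 of the 13 arrays, coloured by group. Villus arrays have the lowest sums, 4170.9 to 5371.2, and Klf2 of 7.5 to 9.1, but Klf4 above all GFP_Low and GFP_High arrays.

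Markers of other cell types moved with the groups. Suprabasal keratinocyte genes were above the receptor level for 7 of 7 genes in the hair follicle (summed 7300.6 to 11760, against 65.4 to 91.7 in Villus, 91.8 to 117.3 in GFP_Low and 119.5 to 154.1 in GFP_High). Melanocyte genes were above it for 5 of 6 in the hair follicle, 2 in Villus, 2 in GFP_Low and 3 in GFP_High. Their hair follicle sums were 225.0, 665.6 and 163.7, highest on replicate 2. Fibroblast genes were above it for 4 of 7 in the hair follicle, 3 in Villus, 1 in GFP_Low and 0 in GFP_High. Of all genes, 58.7 to 60.6% were above the receptor level on each array. T lymphocyte genes were higher in Villus than in GFP_High for 8 of 8 (summed 1716.5 to 2479.3 in Villus and 43.6 to 56.0 in GFP_High). In GFP_Low against GFP_High, enteroendocrine genes were higher for 7 of 8 (summed 4556.2 to 5662.1 in GFP_Low and 162.0 to 300.8 in GFP_High) and Paneth cell genes for 2 of 3 (5024.8 to 9239.9 in GFP_Low and 711.4 to 1438.2 in GFP_High), as were Klf4 and Klf6. Over all genes, 22.6% were higher in Villus and 6.32% in GFP_Low, each against GFP_High. The part of these cell types in the member differences was not tested.

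**Figure D4:**
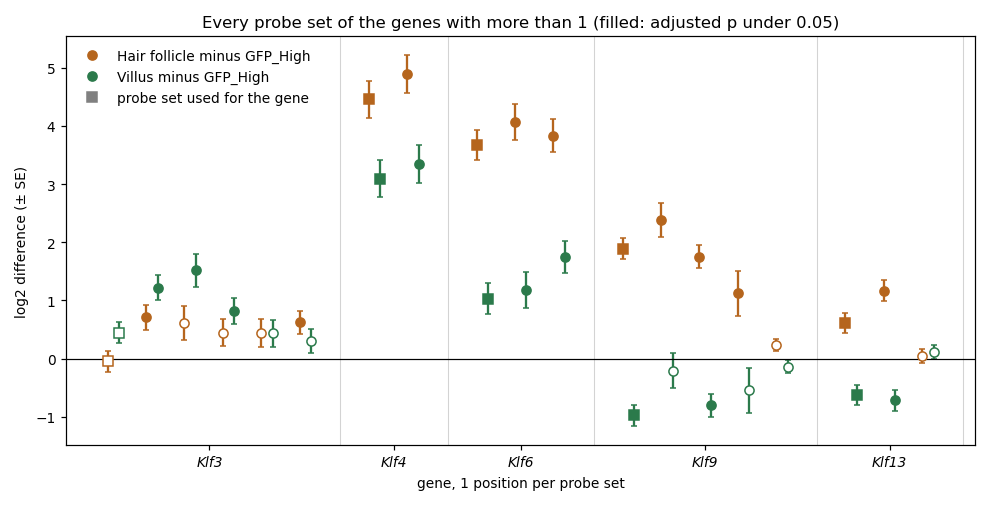
Log2 difference from GFP_High (± SE) for every probe set of the members that have more than 1, hair follicle left and Villus right at each position; squares are the probe sets used, filled symbols had an adjusted p under 0.05 with every probe set in the test. All Klf4 and Klf6 probe sets lie above 0 in both comparisons, and 3 other Klf3 probe sets are filled above 0 in Villus where the one used, at 0.44, is open.

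Other probe sets of the same genes were examined for 5 members. The second Klf4 probe set gave 4.89 in the hair follicle and 3.35 in Villus against GFP_High, and the other Klf6 probe sets gave 4.07 and 3.83 in the hair follicle and 1.18 and 1.74 in Villus. Both genes were called in GFP_Low against GFP_High with every probe set, at 1.303 for the second Klf4 probe set and 1.14 and 0.97 for the other Klf6 probe sets. Klf3 disagreed between its 6 probe sets. In Villus against GFP_High, 3 dimmer ones were called, at 1.22 ± 0.21, 1.52 ± 0.29 and 0.82 ± 0.23 (adjusted p = 0.000238, 0.000507 and 0.00859), where the brightest gave 0.44. In the hair follicle against GFP_High all 5 others were above 0, from 0.44 to 0.71, and 2 were called (0.71 ± 0.21 and 0.63 ± 0.20, adjusted p = 0.0137 and 0.0196), where the brightest gave -0.05, so the hair follicle direction of Klf3 depends on the probe set. The sources used here do not say which Klf3 transcripts each probe set reads. For Klf9 and Klf13, 1 probe set each was below the receptor level in all groups.

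Among the other family genes, 5 of 7 were measured. Klf11, a TGF-beta-inducible relative of Klf10, averaged 244 ± 59.8 in the hair follicle, 18 ± 1.14 in Villus, 120 ± 26.4 in GFP_Low and 116 ± 22.9 in GFP_High (SD), higher in the hair follicle by 1.07 (adjusted p = 0.000435) and lower in Villus (-2.67, adjusted p = 5.19e-08), each against GFP_High. Klf16 averaged 188 ± 66.9 in the hair follicle, 21.6 ± 6.30 in Villus, 36.0 ± 6.12 in GFP_Low and 36.5 ± 8.53 in GFP_High (SD), higher in the hair follicle by 2.33 (adjusted p = 5.13e-06) and lower in Villus (-0.77, adjusted p = 0.0307) than in GFP_High. These were the 2 that changed in either comparison, where 19.4% of all genes were higher in the hair follicle and 26.3% lower in Villus. Klf1, Klf12 and Klf17 did not pass there. Klf17 was below the receptor level in all groups, Klf12 in all but GFP_Low (8.8), and Klf1 was little above it (means 8.0 to 11.1).

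The related Sp factor genes, which bind the same GC boxes, changed in part. Sp5, a target of Wnt signalling, averaged 9.73 ± 0.643 in the hair follicle, 148 ± 26.8 in Villus, 19.8 ± 2.19 in GFP_Low and 140 ± 26.2 in GFP_High (SD). GFP_Low was lower than GFP_High by -2.80 (adjusted p = 7.54e-08), and Villus and GFP_High were not called apart (0.09, adjusted p = 0.712). Of 7 Sp genes measured, the hair follicle had 2 higher and 1 lower than GFP_High (19.4% and 29.1% of all genes). Villus had 1 higher and 1 lower (22.6% and 26.3%). With so few genes, these counts lie near the shares over all genes. Sp6, a factor of tooth and hair development, was the higher gene in Villus and 1.29 higher in the hair follicle than in GFP_High (adjusted p = 4.08e-05). It averaged 15.9 in the hair follicle, 9.8 in Villus and 6.3 in GFP_High, the last below the receptor level. Sp3 was 0.56 higher in the hair follicle than in GFP_High (adjusted p = 0.0491).

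Of 9 co-regulators and ubiquitin ligases of the family measured, 6 were lower and 1 higher in Villus than in GFP_High (26.3% and 22.6% of all genes), and 4 were lower and 3 higher in the hair follicle than in GFP_High (29.1% and 19.4%). Wwp1, a ubiquitin ligase that acts on Klf2 and Klf5, averaged 158 ± 5.70 in the hair follicle, 58.2 ± 11.1 in Villus, 167 ± 18.6 in GFP_Low and 394 ± 52.8 in GFP_High (SD), with a Villus difference of -2.77 (adjusted p = 1.75e-09) and a GFP_Low difference of -1.24 (adjusted p = 6.99e-05) from GFP_High. Ctbp2, a co-repressor of Klf3, was lower by -1.41 in Villus (adjusted p = 2.05e-06). Kat2b, an acetyltransferase, went the other way (1.39, adjusted p = 1.78e-05).

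Genes described as targets of the family, 11 of 13 measured, rose for 6 and fell for 1 in Villus against GFP_High (22.6% and 26.3% of all genes). In the hair follicle against GFP_High, 3 were higher and 3 lower (19.4% and 29.1%). Alpi, the intestinal alkaline phosphatase gene that Klf4 activates, averaged 7.47 ± 0.586 in the hair follicle, below the receptor level although Klf4 was highest there, 7074 ± 248 in Villus, 948 ± 334 in GFP_Low and 26.7 ± 11.4 in GFP_High (SD). Cdkn1a, the p21 cell cycle inhibitor gene and a target of Klf4 and Klf6, averaged 1488 ± 373 in the hair follicle, 758 ± 109 in Villus, 294 ± 69.1 in GFP_Low and 81.6 ± 45.9 in GFP_High (SD), the same group order as Klf4. Its differences from GFP_High were 4.32 in the hair follicle (adjusted p = 8.4e-08), 3.37 in Villus (adjusted p = 9.74e-07) and 1.98 in GFP_Low (adjusted p = 0.00114). Ccnd1, the cyclin D1 gene, fell by -5.36 in Villus against GFP_High (adjusted p = 1.86e-08). The endothelial targets S1pr1, Thbd and Nos3 were below the receptor level in all groups, the hair follicle with its high Klf2 included.

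Where arrays came from 1 sort, the differences could be read within it. GFP_Low was above GFP_High in all 3 sorts for Klf4 (0.99, 0.63 and 0.77), Klf6 (0.19, 1.02 and 0.63) and Klf10 (0.69, 0.38 and 0.30), and below it in all 3 for Klf9 (-0.59, -0.31 and -0.10) and Klf3 (-0.28, -0.07 and -0.13). Klf5 had no common direction (-0.50, 0.29 and 0.02). Hair follicle replicate 2 and GFP_High replicate 2 share a title code. Between them, the hair follicle was higher by 3.58 for Klf4, 3.5015 for Klf6, 1.39 for Klf9, 0.79 for Klf10, 0.34 for Klf13 and 2.17 for Klf15. It was lower for Klf3 (-0.41) and Klf5 (-0.12).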

How the data were processed

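RNA of 13 samples was hybridised to the Affymetrix HT MG-430 PM array. The deposited values are linear intensities. The authors made them by running RMA-sketch, an algorithm of Affymetrix Power Tools (no version was given), which corrects background, normalizes between arrays and summarizes each probe set. The 75th percentile of the deposited values still ran from 37.6 to 52.1 per array. Here log2 was taken with no offset and no further normalization.

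Of 45141 probe sets, 28898 name 1 gene, 551 several and 15692 none in the platform annotation, and 1 probe set per gene was kept. limma (3.58.1, R 4.3.3) was fitted on 17097 genes with 4 group means, Benjamini-Hochberg adjustment over all genes of each of the 6 contrasts and a threshold of 0.05. The code was checked on simulated data. The methods call the replicates biological; Villus arrays carry no sort code. GFP_Low and GFP_High replicates 1, 2 and 3 share a code in their titles, taken here as the sort. Their deviations from the group means correlated (r = 0.29, 0.45 and 0.32), so they were treated as pairs in an alternative. Hair follicle replicate 2 has the code of replicate 2 of both groups, but the titles do not say that both tissues came from 1 sort. Its deviations correlated less with theirs (r = 0.10 with GFP_Low and 0.013 with GFP_High). Median intensity was 7.8 to 8.7 per array and the correlation of log2 values within groups 0.978 to 0.994.

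Named genes were all members, for each other list up to 4 changed genes with the largest differences and up to 2 against them, with S1pr1, Thbd, Nos3 and further list genes named after their values were seen, and for each member the 2 genes of highest Pearson r. Members and lists were chosen with earlier results of these data known. Alternatives changed the probe set, offset, normalization, filter, moderation, samples and block. A test of every probe set was chosen after seeing the data.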

Additional observations from a re-analysis of the deposited data

How the results depend on the processing

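Of 54 member results (9 genes in 6 contrasts), 33 were called. Of these, 23 kept their call in all settings run, 10 lost it under at least 1, and 0 changed sign. A further 10 uncalled results were called with the same sign under at least 1 setting. Besides these, Klf3 in hair follicle minus GFP_High was called with the opposite sign with the mean of its probe sets (0.46, adjusted p = 0.04). The count of members changed between GFP_Low and GFP_High was 2, and it was 1 with 16 added before the log2, 0 with only the 2 groups compared and 0 to 2 without 1 array. Between Villus and GFP_Low the count was 4, and it was 2 without the 3 arrays with disagreeing labels and 2 to 5 without 1 array. The cause was not tested. Over all genes, 37.9% of GFP_Low against GFP_High calls were higher, 49.5% after quantile normalization, 27.0% without the 3 arrays and 53.2% without GFP_Low replicate 1. Villus against GFP_Low gave 49.4% and 56.4% without the 3 arrays.

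The values that changed sign came from results that were not called. In GFP_Low minus GFP_High, Klf3 was 0.19 with the mean of its probe sets, 0.30 with its most variable one, 0.0142 after quantile normalization and -0.16 to 0.12 without 1 array; Klf9 was 0.0114 with its most variable probe set; Klf5 was -0.0624 with the replicate block, -0.0398 without the 3 arrays and -0.0624 to 0.28 without 1 array, and Klf10 was -0.16 without the 3 arrays. In Villus minus GFP_Low, Klf6 was -0.11 after quantile normalization and Klf13 0.28 without the 3 arrays. In hair follicle minus GFP_High, Klf3 was 0.46 with the mean of its probe sets (adjusted p = 0.04), 0.61 with its most variable one, 0.0075 after quantile normalization and -0.20 to 0.0493 without 1 array, and Klf5 was 0.0633 after quantile normalization and -0.26 to 0.0848 without 1 array. In hair follicle minus GFP_Low, Klf3 was 0.27, 0.31 and, without the 3 arrays, 0.22, and -0.17 to 0.0749 without 1 array. With its most variable probe set, a dimmer one, Klf9 was not called in Villus against GFP_High (-0.21, adjusted p = 0.619) or GFP_Low (-0.22, adjusted p = 0.639).

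Sort as a replicate block over 6 arrays moved the GFP_Low minus GFP_High difference of Klf2 to 0.64 and of Klf6 to 0.61 and changed no other member's call; as a random block it changed none. The methods' t-test, run on Villus and GFP_High, called 4 members, unadjusted and after Benjamini-Hochberg adjustment. Genes near the receptor level, Klf15 and Klf2 in the intestine, are limited by signal over background.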

Other observations

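Over the 13 arrays, members with the most similar log2 profiles were Klf9 and Klf13 (Pearson r 0.935), Klf2 and Klf9 (0.932) and Klf6 and Klf15 (0.910), and the least similar were Klf5 and Klf10 (-0.690). The arrays fall into 4 groups, so these values mostly describe shared group differences, and they carry no test. Among 11926 other genes ranked, the 2 nearest to Klf4 were Rnf19b, a ubiquitin ligase gene (0.984), and Itprid2 (0.979). Nearest to Klf2 were Ccdc28b (0.986) and Adgrl3 (0.980), to Klf6 Adh7, an alcohol dehydrogenase gene (0.980), and Dusp8, a phosphatase gene (0.975), and to Klf9 Ptpn4 and Hipk3 (0.987 each). Klf13 was nearest to Tbc1d17 (0.975) and 1600020E01Rik (0.973), Klf15 to Anxa6 (0.976) and S100a3 (0.971), and Klf10 to Tmem120b (0.947) and Tmtc3 (0.936).

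The members that changed least had weaker neighbours. Klf5 was nearest to Fabp3, a fatty acid binding protein gene (0.916), and Vnn3 (0.877). Klf3 was nearest to Ptger4, a prostaglandin E receptor gene (0.880), and Arhgap4 (0.873). Ptger4 averaged 208.5 in the hair follicle, 599.1 in Villus, 213.5 in GFP_Low and 209.7 in GFP_High. Arhgap4 averaged 11.2 in Villus and 5.53 to 6.00 in the other groups, below the receptor level there.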
